A study of Mus musculus with 18 samples.

Results

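The transcriptome of mouse embryonic stem cells (mESCs) lacking Tsc2 was set directly against that of mESCs lacking Nprl2. The comparison took, by their titles, the 2 libraries of GFP+ Tsc2 KO cells and the 2 libraries of GFP+ Nprl2 KO cells, 4 of the 18 libraries of the series, and the GFP+ wild-type libraries did not enter it. It asks where the losses of these negative regulators of the same kinase complex, mTORC1, differ from each other. The Tsc2 KO libraries carry the genotype Rex1GFPd2-Cas9 Tsc2-/- and the Nprl2 KO libraries the genotype Rex1GFPd2-Cas9 Nprl2-/-. Both lines descend from E14 mESCs that carry Cas9 at the Rosa26 locus and a destabilised GFP at the Rex1 gene (Zfp42). Each KO removed an exon with a pair of gRNAs in the flanking introns, and colonies were picked after plating at clonal density. Cells grew in serum and LIF on mitomycin C-treated fibroblasts, and GFP+ cells were sorted before RNA isolation, so that cells which had lost Rex1 expression were not sampled. The labels do not say whether the libraries of a KO are separate clones or cultures, so p-values measure the spread between these libraries, which may be technical, and a difference between the lines includes any difference between the clones.

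mTORC1 is switched on at the lysosome surface when amino acids and growth factors are both present. Gator1, made of Nprl2, Nprl3 and Depdc5, turns off the Rag GTPases when amino acids are scarce, and the Tsc complex, made of Tsc1, Tsc2 and Tbc1d7, turns off the GTPase Rheb when growth factor signals through Akt are absent. Naive mESCs are held in place by a transcription factor network that includes Klf4, Esrrb, Tfcp2l1 and Nanog. On leaving the naive state the cells shut this network and pass through a formative state, in which Pou3f1, Otx2 and the de novo DNA methyltransferases are switched on.

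The libraries held 10810667 and 13299928 estimated counts for Nprl2 KO and 12641510 and 13780861 for Tsc2 KO. Levels are given in CPM, counts scaled to an adjusted library size, and 3 counts corresponded to 0.218 to 0.286 CPM. The median difference between transcript length and effective length follows fragment length. It was 227.9 bases in Nprl2 KO replicate 1, against 177.7 to 183.9 in the others. Markers of the fibroblast feeders summed to 147 CPM in Tsc2 KO replicate 2 and to 540 to 598 CPM in the other 3 libraries, and 1 of 12 tested markers, Pdgfrb, differed between the KOs. Col1a1, a fibrillar collagen of fibroblasts, was at 154 and 37.4 CPM in Tsc2 KO and 146 and 147 CPM in Nprl2 KO, and Lum was at or under 3 counts in every library. Primitive endoderm markers summed to 76.5 CPM in Nprl2 KO replicate 1 and 135 to 151 CPM in the others, and 0 of 8 were called by edgeR, DESeq2 or limma, or at an unadjusted p under 0.05. Markers of the primitive streak summed to 10.7 to 13.7 CPM, most of it Eomes. Of these, 0 of 3 tested were called by edgeR, DESeq2 or limma. At an unadjusted p under 0.05 in edgeR, 1 was higher in Nprl2 KO. The markers of pluripotent cells summed to 5471 and 5102 CPM in Tsc2 KO and 4064 and 3707 CPM in Nprl2 KO. The part of these library features in the differences below was not tested. Without Tsc2 KO replicate 2, 3402 genes were called between the KOs, and without Nprl2 KO replicate 1, 4109, against 4767 with all libraries.

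The targeted genes came first. Tsc2 was at 64.1 and 67.5 CPM in the Tsc2 KO libraries and 163 and 148 CPM in the Nprl2 KO libraries. Both Tsc2 KO libraries lay below both Nprl2 KO libraries (log2 fold change -1.24 ± 0.081, adjusted p = 7.72e-07, edgeR quasi-likelihood test, Benjamini-Hochberg adjusted), where the log2 fold change is Tsc2 KO minus Nprl2 KO and ± gives its SE. Nprl2 was at 11.9 and 14.8 CPM in the Tsc2 KO libraries and 6.01 and 6.53 CPM in the Nprl2 KO libraries. Here the Nprl2 KO libraries were the lower ones, without overlap (log2 fold change 1.09 ± 0.18, adjusted p = 0.000746). Each targeted gene was lower in its own KO, though not at 0, and summing over transcripts does not show whether the removed exon was covered. Of the partner subunits only Tsc1 was called. Nprl3 was at 19.1 and 21.004 CPM in Tsc2 KO and 20.2 and 19.7 CPM in Nprl2 KO (log2 fold change 0.0080, adjusted p = 0.968) and Depdc5 at 49.1 and 56.1 CPM in Tsc2 KO and 51.989 and 44.7 CPM in Nprl2 KO (0.12, adjusted p = 0.414), with overlapping libraries for both. Tbc1d7 was at 10.4 and 9.23 CPM in Tsc2 KO and 8.78 and 7.15 CPM in Nprl2 KO (0.31, adjusted p = 0.227). Tsc1 was at 60.8 and 69.1 CPM in the Tsc2 KO libraries and 43.9 and 45.4 CPM in the Nprl2 KO libraries, higher in both libraries that lack its partner Tsc2 (log2 fold change 0.54 ± 0.098, adjusted p = 0.00124).

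Of 13669 genes that passed the filter on low counts, 4767 (34.9%) were called at an adjusted p under 0.05, 2475 with the higher level in Tsc2 KO (18.1% of those tested) and 2292 with the higher level in Nprl2 KO (16.8%). The median size of a called difference was 0.62 on the log2 scale, and 1384 called genes (29.0%) exceeded 1 in size, 710 with the higher level in Tsc2 KO and 674 in Nprl2 KO. Over all tested genes the median log2 fold change was -0.0068, and the common biological coefficient of variation was 0.0785. All counts of list members below are to be read against these shares and this median. In bulk RNA, fewer cells of a kind and less RNA per cell cannot be told apart.

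The genes with the largest excess in Tsc2 KO were Tgfbi, an extracellular matrix protein induced by TGF-beta, the imprinted non-coding RNA H19, Klhdc7a, the fatty acid binding protein Fabp3, Patl2, S100a13, the naive factors Tfcp2l1 and Tbx3, Xlr4a and Uap1l1. Tgfbi was at 50.1 and 39.9 CPM in the Tsc2 KO libraries and 2.38 and 1.94 CPM in the Nprl2 KO libraries. Both Tsc2 KO libraries lay far above both Nprl2 KO libraries (log2 fold change 4.38 ± 0.19, adjusted p = 3.56e-08). Fabp3 was at 200.1 and 228 CPM in the Tsc2 KO libraries and 14.3 and 19.032 CPM in the Nprl2 KO libraries. The ranges did not overlap (log2 fold change 3.67 ± 0.13, adjusted p = 1.38e-07). The 10 log2 fold changes ran from 3.15 for Tbx3 to 4.38 for Tgfbi. Xlr4a has near-identical copies on the X chromosome, among which kallisto splits reads, so its value (3.24, adjusted p = 4.57e-07) is uncertain.

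In the same ranking, the largest excess in Nprl2 KO was that of Enpp2, which makes lysophosphatidic acid, Vrtn and the formative factor Pou3f1. The metalloproteinase Mmp25, the epithelial splicing regulator Esrp1 and the ligand Wnt8a came next. Pde2a, the lactate exporter Slc16a3, the vitamin C transporter Slc23a1 and Ccno completed it. Enpp2 was at 0.646 and 1.16 CPM in the Tsc2 KO libraries and 25.4 and 25.8 CPM in the Nprl2 KO libraries. It was low in both Tsc2 KO libraries (log2 fold change -4.79 ± 0.23, adjusted p = 8.45e-08). Esrp1 was at 7.34 and 6.32 CPM in the Tsc2 KO libraries and 126 and 120.5 CPM in the Nprl2 KO libraries. The libraries of each KO were close to each other and the groups were far apart (log2 fold change -4.17 ± 0.11, adjusted p = 2e-09). Slc16a3 was at 3.87 and 3.997 CPM in the Tsc2 KO libraries and 55.4 and 30.3 CPM in the Nprl2 KO libraries. The groups did not overlap (log2 fold change -3.43 ± 0.41, adjusted p = 0.00625), but the call was lost without Tsc2 KO replicate 1 or replicate 2.

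A few genes were detected in only 1 of the KOs, with at least 1 CPM in both of its libraries and at most 3 counts in each library of the other: 15 genes in Tsc2 KO and 13 in Nprl2 KO. Trpm1, a cation channel gene, had 44 and 88 counts in the Tsc2 KO libraries and 0 in both Nprl2 KO libraries, at least 19.2-fold higher against a floor of 3 counts per library. Bpifb5 had 40 and 56 counts in Tsc2 KO and 1 and 0 in Nprl2 KO. In the other direction Grm6, a glutamate receptor gene, had 46 and 48 counts in Nprl2 KO against 1 and 0 in Tsc2 KO. Prom2, a relative of prominin, had 47 and 45 counts in Nprl2 KO and 1 in each Tsc2 KO library. Wnt3, which encodes a Wnt ligand of the early embryo, had 18 and 39 counts in Nprl2 KO against 1 and 2 in Tsc2 KO. These 5 genes had no more than 88 counts in any library. Gbp2 and Gbp2b, also detected in Nprl2 KO, are near-identical copies, and the same holds for Xlr4b in Tsc2 KO.

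**Figure D1:**
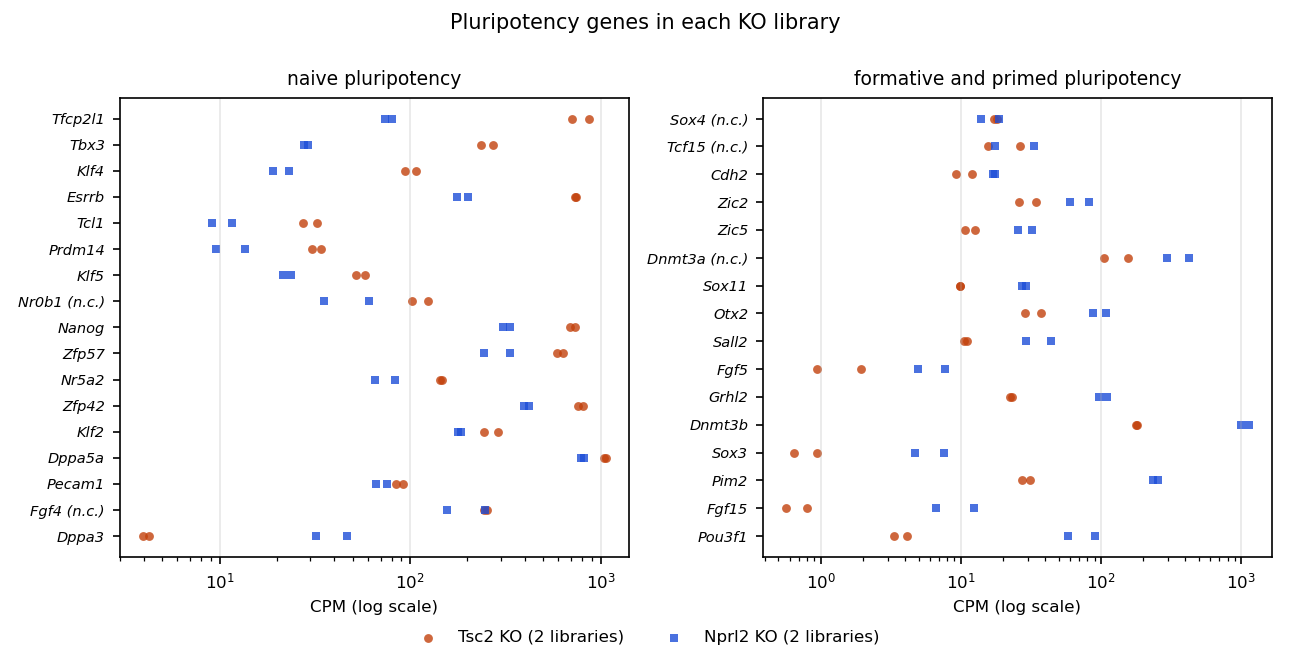
Level of each naive gene (left) and each formative or primed gene (right) in the 4 libraries, in CPM on a log axis, with Tsc2 KO as circles and Nprl2 KO as squares and genes sorted by log2 fold change (n.c., not called). Naive genes sit to the right in Tsc2 KO except Dppa3 and the overlapping Fgf4, and 13 of 16 formative genes were called higher in Nprl2 KO, with Dnmt3a to the right but not called.

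Naive pluripotency genes were higher in Tsc2 KO. Of 17 tested, 14 were called higher in Tsc2 KO and 1, Dppa3, higher in Nprl2 KO, with a median log2 fold change of 1.15. Tfcp2l1, a transcription factor of the naive network, was at 712 and 869 CPM in the Tsc2 KO libraries and 73.5 and 80.8 CPM in the Nprl2 KO libraries. Its level was far higher in both Tsc2 KO libraries (log2 fold change 3.36 ± 0.11, adjusted p = 7.94e-08). Tbx3, a factor that sustains self-renewal, was at 235 and 272 CPM in the Tsc2 KO libraries and 29.3 and 27.8 CPM in the Nprl2 KO libraries, again without overlap (log2 fold change 3.15 ± 0.094, adjusted p = 2.38e-09). Klf4, which acts below LIF and Stat3, was at 94.005 and 107 CPM in the Tsc2 KO libraries and 19.2 and 23.1 CPM in the Nprl2 KO libraries. Both Tsc2 KO libraries lay above both Nprl2 KO libraries (log2 fold change 2.24 ± 0.11, adjusted p = 1.38e-07). Esrrb, a nuclear receptor whose level is restrained by Tcf7l1, was at 740.1 and 732 CPM in the Tsc2 KO libraries and 201 and 177 CPM in the Nprl2 KO libraries (log2 fold change 1.96 ± 0.078, adjusted p = 2.7e-08).

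Nanog was at 694 and 735 CPM in the Tsc2 KO libraries and 308 and 334 CPM in the Nprl2 KO libraries. Again the Tsc2 KO libraries were the higher ones (log2 fold change 1.15 ± 0.072, adjusted p = 5.99e-07). The reporter gene itself, Zfp42, was at 813 and 763 CPM in the Tsc2 KO libraries and 420.1 and 397 CPM in the Nprl2 KO libraries, although all cells had been sorted as GFP+ (log2 fold change 0.95 ± 0.070, adjusted p = 2.02e-06). Dppa3, a factor of oocytes and naive cells that protects imprints from demethylation, was the only member called in the opposite direction, at 3.95 and 4.29 CPM in the Tsc2 KO libraries and 32.2 and 46.8 CPM in the Nprl2 KO libraries. Its Nprl2 KO libraries were the higher ones (log2 fold change -3.26 ± 0.21, adjusted p = 4.65e-06). Fgf4 (0.30, adjusted p = 0.48) overlapped between the KOs, and Nr0b1 did not pass the test (1.24, adjusted p = 0.093) although its Tsc2 KO libraries, at 124 and 102 CPM in Tsc2 KO and 61.1 and 35.3 CPM in Nprl2 KO, were the higher ones. Tfcp2l1, Nr5a2 and Prdm14 lie on chromosome 1, and without them the median of the list was 1.12 and 11 members were higher in Tsc2 KO.

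Formative and primed genes were higher in Nprl2 KO. Of 16 tested, 13 were called higher in Nprl2 KO and 0 higher in Tsc2 KO (0 also by DESeq2, by limma, and at an unadjusted p under 0.05 in edgeR), with a median of -1.67. Pou3f1 (Oct6), a POU factor of the formative epiblast, was at 4.12 and 3.34 CPM in the Tsc2 KO libraries and 90.2 and 57.8 CPM in the Nprl2 KO libraries. It was low in both Tsc2 KO libraries, and the Nprl2 KO libraries lay apart from each other (log2 fold change -4.31 ± 0.30, adjusted p = 0.000367). Fgf15, a fibroblast growth factor, was at 0.565 and 0.799 CPM in the Tsc2 KO libraries and 12.4 and 6.68 CPM in the Nprl2 KO libraries. Both Tsc2 KO values rest on few reads (log2 fold change -3.76 ± 0.40, adjusted p = 7.54e-05). Pim2, a serine/threonine kinase, was at 30.985 and 27.1 CPM in the Tsc2 KO libraries and 235 and 253 CPM in the Nprl2 KO libraries, without overlap (log2 fold change -3.07 ± 0.090, adjusted p = 2.38e-09). Sox3, an HMG-box factor of the early neural plate, was at 0.646 and 0.945 CPM in the Tsc2 KO libraries and 7.54 and 4.74 CPM in the Nprl2 KO libraries (log2 fold change -2.91 ± 0.37, adjusted p = 0.000103).

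The de novo DNA methyltransferase Dnmt3b was at 178 and 179 CPM in the Tsc2 KO libraries and 1135 and 992 CPM in the Nprl2 KO libraries. It was the largest difference of the 13 genes tested that write, read or remove DNA methylation (log2 fold change -2.58 ± 0.082, adjusted p = 3.79e-09). Its relative Dnmt3a was at 157 and 105 CPM in the Tsc2 KO libraries and 428 and 298 CPM in the Nprl2 KO libraries. The groups did not overlap, but replicate 1 was above replicate 2 in both KOs and the test was not passed (log2 fold change -1.47 ± 0.35, adjusted p = 0.0846). Tcf15 overlapped between the KOs (-0.27, adjusted p = 0.744). Of 13 methylation and demethylation genes, 2 were higher in Tsc2 KO, the dioxygenase Tet2 (0.66, adjusted p = 0.000559) and the reader Mbd1 (0.63, adjusted p = 0.00115), and 3 were higher in Nprl2 KO. The maintenance pair Dnmt1 (-0.097, adjusted p = 0.308) and Uhrf1 (-0.086, adjusted p = 0.401) did not pass the test.

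Among core pluripotency genes 4 of 10 were called. Pou5f1 (Oct4) was at 1217 and 1065 CPM in the Tsc2 KO libraries and 1278 and 1087 CPM in the Nprl2 KO libraries. The groups overlapped (log2 fold change -0.051 ± 0.093, adjusted p = 0.715). Sox2 was at 499.7 and 436 CPM in the Tsc2 KO libraries and 428 and 408 CPM in the Nprl2 KO libraries, which also did not pass the test (log2 fold change 0.16 ± 0.078, adjusted p = 0.133). Of 10 core genes, 1, Zfp281 on chromosome 1 (0.57, adjusted p = 0.00198), was higher in Tsc2 KO against 3 in Nprl2 KO, Lin28a (-0.79, adjusted p = 3.22e-05), Dppa4 (-0.76, adjusted p = 0.0197) and Utf1 (-0.56, adjusted p = 0.0394). The calls of Dppa4 and Utf1 were lost without Nprl2 KO replicate 1, which left 1 member higher in Nprl2 KO, and 5 were called higher there without Tsc2 KO replicate 1. The call of Utf1 was also lost with limma and with wild-type libraries added.

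**Figure D2:**
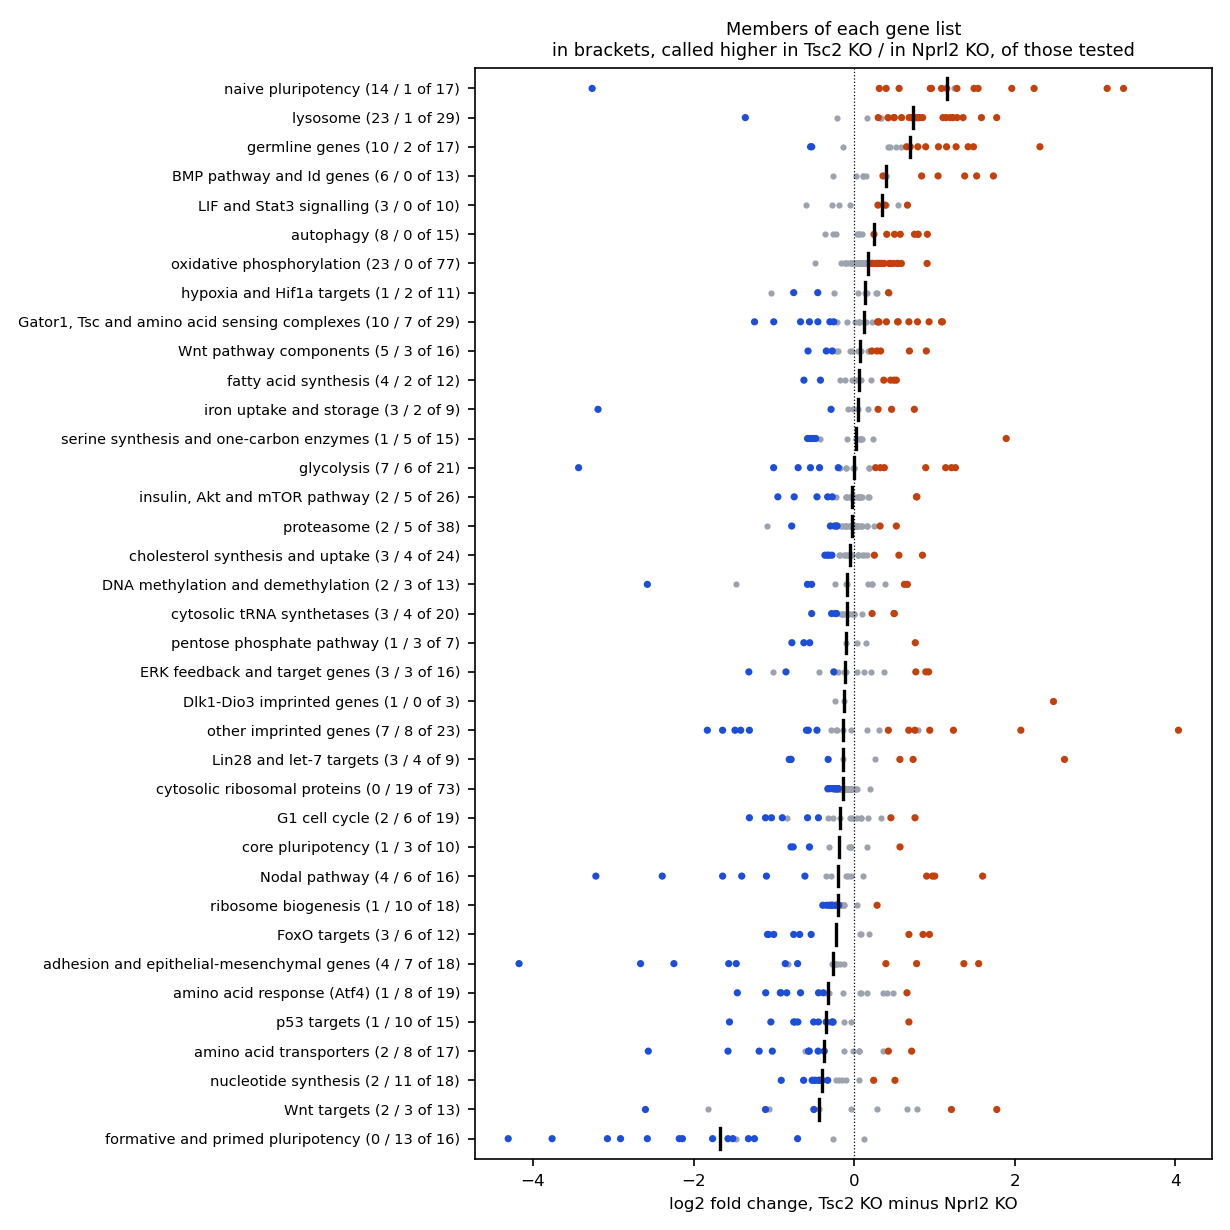
Log2 fold change (Tsc2 KO minus Nprl2 KO) of each tested member of the 37 gene lists, 1 point a gene, red if called higher in Tsc2 KO, blue if called higher in Nprl2 KO and grey if not called, with the list median as a black bar and the median of all genes as a dotted line. Naive, lysosomal and germline lists have the highest medians (1.15, 0.74 and 0.70) and the formative list the lowest (-1.67).

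In the LIF pathway, Stat3, its transcription factor, was at 48.1 and 53.3 CPM in the Tsc2 KO libraries and 33.9 and 30.3 CPM in the Nprl2 KO libraries and was higher in Tsc2 KO without overlap (log2 fold change 0.66 ± 0.11, adjusted p = 0.00054). Lifr (0.39, adjusted p = 0.0232) and Jak1 (0.30, adjusted p = 0.016) were the other members called, giving 3 of 10 higher in Tsc2 KO against 0 in Nprl2 KO (0 also by DESeq2, limma and unadjusted edgeR). The calls of Lifr and Jak1 were lost with DESeq2 and without Tsc2 KO replicate 1, that of Lifr also with limma and without Nprl2 KO replicate 2. Without Tsc2 KO replicate 1 the count was 1, and without Nprl2 KO replicate 2 there was also 1 member called higher in Nprl2 KO. The shared receptor Il6st (-0.050, adjusted p = 0.658) and the Stat3 target Pim1 (0.54, adjusted p = 0.0579) did not pass the test.

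Of the BMP pathway, the ligand Bmp4 and part of the targets were called higher in Tsc2 KO. Bmp4 was at 37.4 and 36.8 CPM in the Tsc2 KO libraries and 11.6 and 10.7 CPM in the Nprl2 KO libraries. Both Tsc2 KO libraries were the higher ones (log2 fold change 1.73 ± 0.12, adjusted p = 1.17e-06). Of the Id genes, direct targets that block differentiation factors, Id2, Id3 and Id4 were called higher in Tsc2 KO, and Id1 did not pass the test (0.12, adjusted p = 0.719). Id4 was at 6.94 and 7.12 CPM in Tsc2 KO and 2.29 and 2.56 CPM in Nprl2 KO (1.53, adjusted p = 0.000456) and Id2 at 8.55 and 11.3 CPM in Tsc2 KO and 4.01 and 3.65 CPM in Nprl2 KO (1.38, adjusted p = 0.00055). The inhibitor Smad6, also a direct target, was higher too (1.04, adjusted p = 0.00587). Of 13 tested, 6 were higher in Tsc2 KO and 0 in Nprl2 KO (0 also by DESeq2, limma and unadjusted edgeR), with a median of 0.40. The receptor Bmpr1a (0.023, adjusted p = 0.834) and the transducer Smad5 (0.11, adjusted p = 0.37) did not pass the test.

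Members of the Nodal pathway were called in both directions. Lefty1, a feedback inhibitor and target of Nodal, was at 6.54 and 7.05 CPM in the Tsc2 KO libraries and 60.6 and 65.952 CPM in the Nprl2 KO libraries. It was higher in both Nprl2 KO libraries (log2 fold change -3.22 ± 0.12, adjusted p = 1.81e-08), against the direction of most of chromosome 1, where it lies. Lefty2 was at 10.7 and 7.70 CPM in the Tsc2 KO libraries and 27.9 and 29.1 CPM in the Nprl2 KO libraries (log2 fold change -1.64 ± 0.16, adjusted p = 1.54e-05). Pcsk6, a protease that matures Nodal, was at 117 and 132 CPM in the Tsc2 KO libraries and 43.6 and 38.8 CPM in the Nprl2 KO libraries and went the other way (log2 fold change 1.6003 ± 0.095, adjusted p = 4.03e-07). Of 16 tested, 4 were higher in Tsc2 KO and 6 in Nprl2 KO (median -0.20). The transducers Smad2 (0.11, adjusted p = 0.337) and Smad4 (-0.041, adjusted p = 0.719) did not pass the test.

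Among Wnt targets, Lef1, which is both a target and a transcription factor of the pathway, was at 12.7 and 10.8 CPM in the Tsc2 KO libraries and 70.018 and 71.7 CPM in the Nprl2 KO libraries. It was higher in Nprl2 KO without overlap (log2 fold change -2.60 ± 0.11, adjusted p = 4.78e-08). Ccnd1 was also higher there (-1.10, adjusted p = 0.000301), whereas the caudal factor Cdx1 (1.78, adjusted p = 0.00175) and the inhibitor Apcdd1 (1.21, adjusted p = 0.000213) were higher in Tsc2 KO. Axin2, a feedback gene often used as a readout, was at 25.7 and 42.1 CPM in the Tsc2 KO libraries and 38.3 and 53.1 CPM in the Nprl2 KO libraries. The groups overlapped (log2 fold change -0.43 ± 0.32, adjusted p = 0.397), and Notum did not pass the test either (-0.52, adjusted p = 0.061). In all, 2 of 13 targets were higher in Tsc2 KO and 3 in Nprl2 KO, with a median of -0.43.

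Wnt pathway components gave 5 higher in Tsc2 KO against 3 in Nprl2 KO of 16. The first count fell to 1 without Nprl2 KO replicate 2 and to 2 without Tsc2 KO replicate 2, and the second to 1 without either Tsc2 KO library. Tcf7l2, a DNA-binding partner of beta-catenin, was higher in Tsc2 KO (0.90, adjusted p = 0.00664), a call lost without Nprl2 KO replicate 2. The Wnt effector Tcf7l1, a repressor (-0.27, adjusted p = 0.0171), and the co-receptor Lrp5 (-0.35, adjusted p = 0.0296) were higher in Nprl2 KO, with the call of Lrp5 lost with DESeq2, with limma and without Nprl2 KO replicate 1 or either Tsc2 KO library. The other gene counted there, Tcf3 on chromosome 10 (-0.57, adjusted p = 0.000183), encodes the E-protein E2A and shares only an older name with Tcf7l1. The receptor Fzd5, on chromosome 1, was higher in Tsc2 KO (0.69, adjusted p = 0.0113), and the destruction complex member Apc did not pass the test (0.089, adjusted p = 0.35).

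ERK feedback and target genes were called in both directions, 3 higher in Tsc2 KO against 3 in Nprl2 KO of 16. The Ets factor Etv1 was at 75.2 and 72.3 CPM in the Tsc2 KO libraries and 40.7 and 38.8 CPM in the Nprl2 KO libraries (log2 fold change 0.89 ± 0.091, adjusted p = 2.27e-05). The feedback inhibitor Spry2 was at 22.8 and 21.1 CPM in the Tsc2 KO libraries and 38.6 and 40.2 CPM in the Nprl2 KO libraries and was higher in Nprl2 KO (log2 fold change -0.85 ± 0.11, adjusted p = 0.000106). Its relative Spry4 was higher in Tsc2 KO (0.93, adjusted p = 0.0373), a call lost with no filter on low counts and without Nprl2 KO replicate 2. Egr1 (-1.31, adjusted p = 0.0367) was below 2 CPM throughout and its call was lost with DESeq2 and when any single library was left out. The count higher in Nprl2 KO was 1 without Nprl2 KO replicate 1 or Tsc2 KO replicate 2. Spred1 (0.21, adjusted p = 0.175) and Spred2 (-0.25, adjusted p = 0.162) did not pass the test.

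Genes of the insulin and Akt pathway, which feeds into Tsc2, were called in both directions, at a share (26.9%) not far from that of all genes. Of 26 tested, 2 were higher in Tsc2 KO and 5 in Nprl2 KO (3 without Tsc2 KO replicate 2), below the 34.9% of all genes. The kinase Akt1 was at 23.6 and 18.9 CPM in the Tsc2 KO libraries and 41.5 and 40.5 CPM in the Nprl2 KO libraries (log2 fold change -0.95 ± 0.12, adjusted p = 0.000125). Both Nprl2 KO libraries were the higher ones. The growth factor receptor Igf1r was higher in Tsc2 KO (0.78, adjusted p = 0.000444). Mtor itself (-0.018, adjusted p = 0.887) and the mTORC1 substrate Eif4ebp1 (0.079, adjusted p = 0.404) did not pass the test.

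Of 12 targets of FoxO factors, which Akt represses, 6 were higher in Nprl2 KO against 3 in Tsc2 KO, with a median of -0.23. Bcl2l11 (Bim), a death-inducing BH3 protein, was at 23.3 and 22.8 CPM in the Tsc2 KO libraries and 46.9 and 49.6 CPM in the Nprl2 KO libraries (log2 fold change -1.07 ± 0.10, adjusted p = 1.46e-05). Sesn3, an inhibitor of mTORC1, was at 14.8 and 17.6 CPM in the Tsc2 KO libraries and 31.1 and 33.7 CPM in the Nprl2 KO libraries (log2 fold change -1.001 ± 0.13, adjusted p = 0.000102). Ccng2, a cyclin G, was higher in Tsc2 KO (0.94, adjusted p = 0.00449). Pik3ip1 was higher in Nprl2 KO (-1.08, adjusted p = 0.012), a call lost with DESeq2 and without Nprl2 KO replicate 1 or Tsc2 KO replicate 1. Cdkn1b (0.090, adjusted p = 0.59) and Insr (0.074, adjusted p = 0.759) did not pass the test.

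**Figure D3:**
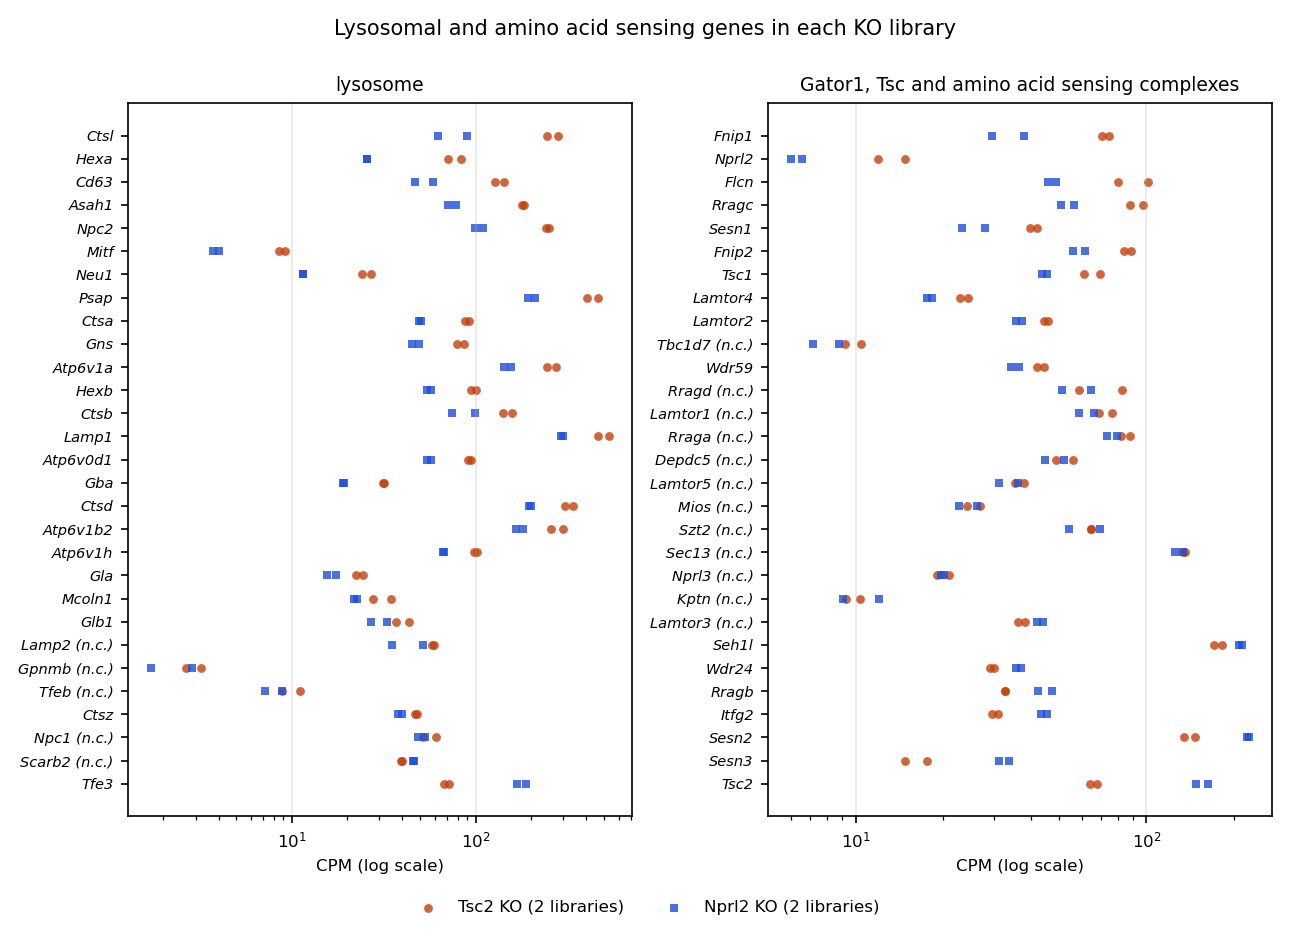
Level of each lysosomal gene (left) and each gene of the Gator1, Tsc and amino acid sensing complexes (right) in the 4 libraries, in CPM on a log axis, with Tsc2 KO as circles and Nprl2 KO as squares and genes sorted by log2 fold change (n.c., not called). In the left panel 23 genes are called higher in Tsc2 KO and Tfe3, at the bottom, is the exception.

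Folliculin (Flcn) and its partners Fnip1 and Fnip2 form a GTPase-activating complex for RagC and RagD. Fnip1 was at 70.4 and 74.6 CPM in the Tsc2 KO libraries and 29.4 and 38.1 CPM in the Nprl2 KO libraries. Both Tsc2 KO libraries were the higher ones (log2 fold change 1.10 ± 0.12, adjusted p = 4.39e-05). Flcn was at 79.8 and 101 CPM in the Tsc2 KO libraries and 45.979 and 48.8 CPM in the Nprl2 KO libraries (log2 fold change 0.93 ± 0.11, adjusted p = 0.00014), and Rragc, which encodes RagC, was at 88.034 and 97.2 CPM in the Tsc2 KO libraries and 50.7 and 56.3 CPM in the Nprl2 KO libraries (log2 fold change 0.79 ± 0.092, adjusted p = 6.11e-05). Both were singled out after their values were seen. Of 29 genes, 10 were higher in Tsc2 KO and 7 in Nprl2 KO, with Nprl2 and Tsc2 among them, and the median was 0.12. Rraga, encoding RagA (0.15, adjusted p = 0.197), and Sec13 of Gator2 (0.061, adjusted p = 0.563) did not pass the test.

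Lysosomal genes were higher in Tsc2 KO. The list holds hydrolases, membrane proteins and proton pump subunits of the lysosome, many of them targets of the transcription factors Tfeb and Tfe3, which mTORC1 keeps in the cytoplasm. It also holds Tfeb, Tfe3 and their relative Mitf, which is among the members called higher in Tsc2 KO (1.20, adjusted p = 0.000912). Of 29 tested, 23 were called higher in Tsc2 KO and 1, Tfe3, higher in Nprl2 KO, with a median of 0.74. When single libraries were left out, 20 to 23 members were called higher in Tsc2 KO. Ctsl, the protease cathepsin L, was at 245 and 281 CPM in the Tsc2 KO libraries and 62.7 and 90.3 CPM in the Nprl2 KO libraries. The groups did not overlap, and the Nprl2 KO libraries lay further apart than the Tsc2 KO libraries (log2 fold change 1.78 ± 0.20, adjusted p = 0.0037). Hexa, a subunit of beta-hexosaminidase, was at 70.7 and 83.4 CPM in the Tsc2 KO libraries and 25.6 and 25.8 CPM in the Nprl2 KO libraries. The Nprl2 KO libraries were nearly equal and well below (log2 fold change 1.59 ± 0.11, adjusted p = 1.07e-06). Cd63, a tetraspanin of late endosomes, was at 127 and 143 CPM in the Tsc2 KO libraries and 46.8 and 58.3 CPM in the Nprl2 KO libraries (log2 fold change 1.36 ± 0.11, adjusted p = 1e-05). Tfe3 was at 71.2 and 67.4 CPM in the Tsc2 KO libraries and 187 and 168 CPM in the Nprl2 KO libraries. It was the lower one in both Tsc2 KO libraries (log2 fold change -1.36 ± 0.081, adjusted p = 4.22e-07). The membrane proteins Lamp2 (0.42, adjusted p = 0.0934) and Npc1 (0.15, adjusted p = 0.28) did not pass the test.

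The promoters of lysosomal genes were searched for TCACGTGA, a palindromic E-box bound by Tfeb and Tfe3 that reads the same on both strands, in RefSeq windows from 250 bases before to 50 bases after the start (GRCm38.p6). It was present in 304 of 27025 genes with a window (1.12%) and in 229 of 10842 tested genes (2.11%). Only 21 of 29 lysosomal genes had a window that was searched, too few for a statement about the list. Among these 21 it was present in 6, Atp6v0d1, Atp6v1a, Ctsa, Ctsd, Gla and Mcoln1. All 6 were called higher in Tsc2 KO, as were 23 of all 29 lysosomal genes, with or without the E-box. Calls among the other tested genes that hold it were not counted. A match is a description of the sequence and not evidence of binding. The windows of Ctsa and Ctsd, proteases, Mcoln1, a calcium channel, and Atp6v1a, a proton pump subunit, are shown 5′ to 3′ along each gene's strand with the E-box in capitals, to place it relative to the start site. Those of Ctsa (log2 fold change 0.85) and Ctsd (0.71) lie at chr2:164833523-164833822 (plus strand) and chr7:142387778-142388077 (minus strand), those of Mcoln1 (0.50) and Atp6v1a (0.80) at chr8:3500269-3500568 (plus strand) and chr16:44139210-44139509 (minus strand). Ctsa holds 2 copies, which begin 13 bases before the start and 4 bases after it.
Ctsa: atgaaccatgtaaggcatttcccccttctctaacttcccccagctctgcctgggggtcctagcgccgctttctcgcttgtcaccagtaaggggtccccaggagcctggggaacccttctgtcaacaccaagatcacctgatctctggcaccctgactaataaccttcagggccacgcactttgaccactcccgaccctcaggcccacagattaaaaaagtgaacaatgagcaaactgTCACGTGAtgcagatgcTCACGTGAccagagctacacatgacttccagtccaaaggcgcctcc
Ctsd: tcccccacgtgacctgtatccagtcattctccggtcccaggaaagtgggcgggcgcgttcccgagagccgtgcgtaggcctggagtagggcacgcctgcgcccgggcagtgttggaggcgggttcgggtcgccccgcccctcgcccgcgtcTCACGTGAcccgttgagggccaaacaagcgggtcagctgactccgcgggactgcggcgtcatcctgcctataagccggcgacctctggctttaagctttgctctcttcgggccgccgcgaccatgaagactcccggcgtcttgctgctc
Mcoln1: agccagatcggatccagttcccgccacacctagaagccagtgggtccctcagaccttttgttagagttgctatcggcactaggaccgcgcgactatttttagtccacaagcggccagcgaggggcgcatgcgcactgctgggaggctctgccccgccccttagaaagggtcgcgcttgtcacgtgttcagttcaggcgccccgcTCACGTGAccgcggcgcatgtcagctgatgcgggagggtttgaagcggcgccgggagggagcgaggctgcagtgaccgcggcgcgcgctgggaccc
Atp6v1a: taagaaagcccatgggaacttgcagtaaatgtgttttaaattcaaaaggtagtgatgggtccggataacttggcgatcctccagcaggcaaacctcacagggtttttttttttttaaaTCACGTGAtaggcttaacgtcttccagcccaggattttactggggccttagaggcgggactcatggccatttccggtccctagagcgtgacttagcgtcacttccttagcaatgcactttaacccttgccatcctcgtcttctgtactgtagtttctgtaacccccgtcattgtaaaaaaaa

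Of autophagy genes, 8 of 15 were higher in Tsc2 KO and 0 in Nprl2 KO (0 by DESeq2 and limma, 2 at an unadjusted p under 0.05 in edgeR), with a median of 0.25. Gabarapl2, a ubiquitin-like protein of the autophagosome, was at 297 and 305 CPM in the Tsc2 KO libraries and 156 and 163 CPM in the Nprl2 KO libraries. The groups did not overlap (log2 fold change 0.91 ± 0.069, adjusted p = 2.3e-06). Gabarap was also higher (0.79, adjusted p = 9.68e-05), as were the phosphoinositide reader Wipi1 (0.80, adjusted p = 0.0063) and Atg9a, on chromosome 1 (0.75, adjusted p = 0.000441). Wipi2 (-0.23, adjusted p = 0.0556) and Atg13 (0.038, adjusted p = 0.762) did not pass the test.

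Genes of the amino acid response, which Atf4 switches on when amino acids are short and also when mTORC1 is active, were called mainly as higher in Nprl2 KO. Of 19 tested, 8 were higher in Nprl2 KO and 1, Asns, higher in Tsc2 KO, with a median of -0.33. The count higher in Nprl2 KO was 4 without Tsc2 KO replicate 1, and 5 by DESeq2. Ddit4, an inhibitor of mTORC1, was at 28.2 and 39.7 CPM in the Tsc2 KO libraries and 74.3 and 112 CPM in the Nprl2 KO libraries. The groups did not overlap (log2 fold change -1.45 ± 0.30, adjusted p = 0.0385), but its call was lost with no filter on low counts and without either Tsc2 KO library. Chac1, which degrades glutathione, was at 4.84 and 7.85 CPM in the Tsc2 KO libraries and 11.3 and 12.7 CPM in the Nprl2 KO libraries (log2 fold change -0.91 ± 0.22, adjusted p = 0.00823), and its call was lost without Tsc2 KO replicate 1. Cebpb, a partner of Atf4 on DNA, was higher in Nprl2 KO (-0.92, adjusted p = 0.00528), and Stc2 too (-1.10, adjusted p = 0.0131), with that call lost with DESeq2 and without Nprl2 KO replicate 1 or Tsc2 KO replicate 2. Atf4 itself was at 245 and 237 CPM in the Tsc2 KO libraries and 227 and 229 CPM in the Nprl2 KO libraries and did not pass the test (log2 fold change 0.080 ± 0.067, adjusted p = 0.393). Cth, an enzyme of cysteine synthesis, did not pass it either (0.48, adjusted p = 0.115).

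The sequence TGATGCAA, a composite site of C/EBP and Atf factors, was found on either strand of the same windows in 279 of 27025 genes (1.03%) and in 82 of 10842 tested genes (0.756%). Of 18 amino acid response genes with a window it was present in 5, Atf3, Chac1, Jdp2, Nupr1 and Vldlr, of which Chac1 and Vldlr were called higher in Nprl2 KO and the others were not called. The window of Chac1 at chr2:119350992-119351291 (plus strand) is printed because it carries this site, in capitals, 193 bases before the start of a gene that differed.
Chac1: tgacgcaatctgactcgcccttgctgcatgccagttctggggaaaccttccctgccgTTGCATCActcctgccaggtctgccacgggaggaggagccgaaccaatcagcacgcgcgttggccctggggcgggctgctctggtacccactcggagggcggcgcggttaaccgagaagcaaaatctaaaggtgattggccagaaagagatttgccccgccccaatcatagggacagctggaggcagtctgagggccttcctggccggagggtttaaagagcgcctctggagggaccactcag

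Amino acid transporters were higher in Nprl2 KO in 8 of 17 cases and higher in Tsc2 KO in 2, with a median of -0.37. Slc38a2, the sodium-coupled carrier of small neutral amino acids, was at 354 and 366 CPM in the Tsc2 KO libraries and 839.7 and 796 CPM in the Nprl2 KO libraries. Both Nprl2 KO libraries were the higher ones (log2 fold change -1.18 ± 0.068, adjusted p = 3.22e-07). Slc43a1, a carrier of large neutral amino acids, was at 2.26 and 2.18 CPM in the Tsc2 KO libraries and 12.2 and 14.1 CPM in the Nprl2 KO libraries (log2 fold change -2.56 ± 0.21, adjusted p = 4.29e-06), and its relative Slc43a2 was higher as well (-1.02, adjusted p = 0.000178). Slc7a7 was higher in Nprl2 KO (-1.57, adjusted p = 0.0386), a call lost with no filter and without either Nprl2 KO library. Slc7a3 (-0.61, adjusted p = 0.2) and Slc38a1 (-0.13, adjusted p = 0.294) did not pass the test.

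Of serine and one-carbon enzymes, 1 of 15 was higher in Tsc2 KO against 5 in Nprl2 KO. Psat1, which makes phosphoserine, was at 249.6 and 237 CPM in the Tsc2 KO libraries and 338 and 389 CPM in the Nprl2 KO libraries (log2 fold change -0.58 ± 0.080, adjusted p = 0.000188). Mthfd2, a mitochondrial folate enzyme, was higher in Nprl2 KO (-0.55, adjusted p = 0.000538), and Mthfd1l too (-0.54, adjusted p = 0.000927). Aldh1l1, the cytosolic formyltetrahydrofolate dehydrogenase, was at 17.3 and 23.983 CPM in the Tsc2 KO libraries and 5.53 and 5.59 CPM in the Nprl2 KO libraries and was higher in Tsc2 KO (log2 fold change 1.89 ± 0.19, adjusted p = 2.16e-05). Mthfd1 (0.026, adjusted p = 0.81) and Gldc (0.079, adjusted p = 0.407) did not pass the test.

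Of 20 cytosolic tRNA synthetases, which charge tRNAs with amino acids, 3 were higher in Tsc2 KO, and those were the 3 that lie on chromosome 1, Dars (0.50, adjusted p = 0.000236), Eprs (0.50, adjusted p = 0.000298) and Farsb. In Nprl2 KO the count was 4, led by Vars (-0.53, adjusted p = 0.000425) and including Lars (-0.28, adjusted p = 0.0122, not called with limma or without Tsc2 KO replicate 2), a count that fell to 1 without Tsc2 KO replicate 2 and to 2 without Nprl2 KO replicate 2. Aars (0.10, adjusted p = 0.261) and Nars (-0.088, adjusted p = 0.399) did not pass the test.

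Nucleotide synthesis genes were higher in Nprl2 KO in 11 of 18 cases and in Tsc2 KO in 2, with a median of -0.40. Prps1, which makes the sugar phosphate that nucleotides are built on, was at 80.9 and 70.9 CPM in the Tsc2 KO libraries and 146 and 139 CPM in the Nprl2 KO libraries. No library of one KO reached those of the other (log2 fold change -0.91 ± 0.084, adjusted p = 1.12e-05). Rrm2, the regulated subunit of ribonucleotide reductase, was at 223 and 232 CPM in the Tsc2 KO libraries and 354 and 350.2 CPM in the Nprl2 KO libraries (log2 fold change -0.63 ± 0.067, adjusted p = 3.17e-05). Impdh1, of guanine nucleotide synthesis, was higher in Nprl2 KO too (-0.52, adjusted p = 0.00133), whereas Adss, on chromosome 1, was higher in Tsc2 KO (0.51, adjusted p = 0.000132). The count higher in Nprl2 KO was 10 or 11 when single libraries were left out, and that higher in Tsc2 KO was 1 without Nprl2 KO replicate 2 or Tsc2 KO replicate 1. Paics (-0.10, adjusted p = 0.284) and Impdh2 (-0.15, adjusted p = 0.109) did not pass the test.

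Of ribosome biogenesis genes, 10 of 18 were higher in Nprl2 KO and 1, Ncl on chromosome 1, higher in Tsc2 KO, with a median of -0.20. Npm1, a nucleolar chaperone, was at 3260.3 and 2877 CPM in the Tsc2 KO libraries and 3842 and 4201 CPM in the Nprl2 KO libraries (log2 fold change -0.39 ± 0.081, adjusted p = 0.00297), and the RNA polymerase I subunit Polr1b was higher in Nprl2 KO too (-0.34, adjusted p = 0.00252). The count higher in Nprl2 KO was 6 without Nprl2 KO replicate 2 or Tsc2 KO replicate 1 and 3 without Tsc2 KO replicate 2, which also ended the calls of Nolc1 (-0.31, adjusted p = 0.00651) and Bop1 (-0.29, adjusted p = 0.00821). Ubtf (0.032, adjusted p = 0.75) did not pass the test.

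Of 73 cytosolic ribosomal protein genes, 19 were called higher in Nprl2 KO and 0 higher in Tsc2 KO (0 also by DESeq2, limma and unadjusted edgeR), and the differences ran from -0.33 to 0.20 with a median of -0.14. Rpl24 was at 508 and 496 CPM in the Tsc2 KO libraries and 602 and 657 CPM in the Nprl2 KO libraries (log2 fold change -0.33 ± 0.070, adjusted p = 0.00381). The count depended on single libraries. It was 33 without Nprl2 KO replicate 1, 3 without Nprl2 KO replicate 2 (with 2 higher in Tsc2 KO), 6 without Tsc2 KO replicate 1 and 2 without Tsc2 KO replicate 2. Many of these genes have near-identical processed copies in the genome. Whether reads were shared with such copies was not tested, and their values are uncertain.

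Among nuclear genes of oxidative phosphorylation the calls had the other direction. Of 77 tested, 23 were called higher in Tsc2 KO against 0 in Nprl2 KO (0 by DESeq2 and limma, 1 at an unadjusted p under 0.05 in edgeR), with a median of 0.18. The count was 14 without Nprl2 KO replicate 1 and 12 without either Tsc2 KO library. Sdhc, a membrane subunit of complex II on chromosome 1, was at 221 and 215 CPM in the Tsc2 KO libraries and 117 and 116 CPM in the Nprl2 KO libraries (log2 fold change 0.91 ± 0.069, adjusted p = 2.49e-06). The complex I subunits Ndufv3 (0.59, adjusted p = 0.000603) and Ndufb4 (0.54, adjusted p = 0.00121) were higher as well. The ATP synthase subunits Atp5a1 (-0.086, adjusted p = 0.344) and Atp5b (0.12, adjusted p = 0.179) did not pass the test.

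Glycolytic genes were called in both directions, with 7 of 21 higher in Tsc2 KO, 6 higher in Nprl2 KO and a median of -0.0073. The hexose transporter Slc2a3 (Glut3) was at 1289 and 1474 CPM in the Tsc2 KO libraries and 609 and 645 CPM in the Nprl2 KO libraries. Its level was higher in both Tsc2 KO libraries (log2 fold change 1.14 ± 0.079, adjusted p = 1.23e-06). Hk1, a hexokinase, was at 119 and 129 CPM in the Tsc2 KO libraries and 54.8 and 52.4 CPM in the Nprl2 KO libraries (log2 fold change 1.21 ± 0.083, adjusted p = 1.11e-06). The isoforms of lactate dehydrogenase were called in opposite directions. Ldhb was at 355 and 346 CPM in the Tsc2 KO libraries and 142 and 150.5 CPM in the Nprl2 KO libraries (log2 fold change 1.26 ± 0.070, adjusted p = 2.58e-07), whereas Ldha, singled out after its value was seen, was at 251 and 246 CPM in the Tsc2 KO libraries and 481 and 516 CPM in the Nprl2 KO libraries (log2 fold change -1.003 ± 0.070, adjusted p = 1.22e-06). Gapdh (-0.10, adjusted p = 0.316) and Pgam1 (-0.10, adjusted p = 0.267) did not pass the test.

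Genes of lipid synthesis were called in both directions. Of 24 cholesterol genes, 3 were higher in Tsc2 KO and 4 in Nprl2 KO (2 without Nprl2 KO replicate 1 or Tsc2 KO replicate 1), the latter led by Idi1 (-0.36, adjusted p = 0.00241). Sc5d (0.56, adjusted p = 0.004) and Hsd17b7 on chromosome 1 (0.85, adjusted p = 0.000269) were higher in Tsc2 KO, and the regulator Srebf2 did not pass the test (0.049, adjusted p = 0.678). Of 12 fatty acid genes, 4 were higher in Tsc2 KO and 2 in Nprl2 KO. Fatty acid synthase, Fasn, was at 412 and 444 CPM in the Tsc2 KO libraries and 698 and 623 CPM in the Nprl2 KO libraries (log2 fold change -0.63 ± 0.077, adjusted p = 8.86e-05). Me1, which supplies NADPH, was at 100.2 and 104 CPM in the Tsc2 KO libraries and 72.9 and 69.2 CPM in the Nprl2 KO libraries and was higher in Tsc2 KO (log2 fold change 0.53 ± 0.079, adjusted p = 0.00037), as were the desaturase Fads1 (0.50, adjusted p = 0.000897) and the elongase Elovl5 (0.45, adjusted p = 0.00326). Acly (-0.11, adjusted p = 0.25) and Scd2 (-0.17, adjusted p = 0.0717) did not pass the test.

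Germline genes, many of which are kept silent by promoter DNA methylation in somatic cells, were higher in Tsc2 KO in 10 of 17 cases (6 without Nprl2 KO replicate 2) and higher in Nprl2 KO in 2, with a median of 0.70. Brdt, a testis bromodomain protein, was at 5.57 and 5.16 CPM in the Tsc2 KO libraries and 1.05 and 1.09 CPM in the Nprl2 KO libraries. It was low in both KOs but without overlap (log2 fold change 2.31 ± 0.30, adjusted p = 0.000133). Mael, of the piRNA pathway and on chromosome 1, was at 34.9 and 34.013 CPM in the Tsc2 KO libraries and 14.023 and 11.8 CPM in the Nprl2 KO libraries (log2 fold change 1.42 ± 0.13, adjusted p = 7.57e-06). Stk31 was at 33.2 and 27.5 CPM in the Tsc2 KO libraries and 13.8 and 11.4 CPM in the Nprl2 KO libraries (log2 fold change 1.27 ± 0.15, adjusted p = 5.25e-05). Sycp2, of the synaptonemal complex, was at no more than 3.79 CPM (1.49, adjusted p = 0.0151), and its call was lost with DESeq2 and without Tsc2 KO replicate 1. The germ cell helicase Ddx4 (0.44, adjusted p = 0.056) and Tex11 (0.59, adjusted p = 0.0655) did not pass the test.

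Imprinted genes were called in both directions, with 7 of 23 outside the Dlk1-Dio3 cluster higher in Tsc2 KO and 8 in Nprl2 KO. H19, the maternally expressed RNA of the Igf2 locus, was at 54.2 and 78.6 CPM in the Tsc2 KO libraries and 4.58 and 3.57 CPM in the Nprl2 KO libraries. The groups were far apart (log2 fold change 4.04 ± 0.24, adjusted p = 3.66e-05). Plagl1, a paternally expressed zinc finger factor, was at 36.956 and 44.8 CPM in the Tsc2 KO libraries and 9.25 and 10.1 CPM in the Nprl2 KO libraries (log2 fold change 2.08 ± 0.14, adjusted p = 8.81e-07). Magel2 was at 1.61 and 0.945 CPM in the Tsc2 KO libraries and 5.06 and 4.04 CPM in the Nprl2 KO libraries and was higher in Nprl2 KO (log2 fold change -1.83 ± 0.34, adjusted p = 0.00143), as was Nnat (-1.64, adjusted p = 0.000245). Impact (-0.038, adjusted p = 0.727) and Kcnq1ot1 (-0.14, adjusted p = 0.206) did not pass the test. In the Dlk1-Dio3 cluster, 3 of 7 genes were tested, and Dio3, the thyroid hormone deiodinase, was higher in Tsc2 KO (2.48, adjusted p = 0.000149). Meg3, a maternally expressed RNA of that cluster, was at 14.4 and 4.22 CPM in the Tsc2 KO libraries and 11.2 and 10.6 CPM in the Nprl2 KO libraries. The Tsc2 KO libraries lay on either side of the Nprl2 KO libraries (log2 fold change -0.24 ± 0.71, adjusted p = 0.838), and Rian did not pass the test either (-0.13, adjusted p = 0.916). Tsc2 KO replicate 2, the library with the lower Meg3 level, also had the lowest feeder marker sum, 147 CPM against 540 to 598 CPM in the others. The part of feeder RNA in the Meg3 level was not tested.

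Genes of the p53 pathway were higher in Nprl2 KO in 10 of 15 cases and higher in Tsc2 KO in 1, with a median of -0.35. Bbc3 (Puma), a death-inducing BH3 protein, was at 14.5 and 14.8 CPM in the Tsc2 KO libraries and 45.979 and 40.1 CPM in the Nprl2 KO libraries. Both Nprl2 KO libraries were the higher ones (log2 fold change -1.55 ± 0.12, adjusted p = 2.53e-06). Pmaip1 (Noxa), of the same class, was at 29.3 and 22.4 CPM in the Tsc2 KO libraries and 45.7 and 59.8 CPM in the Nprl2 KO libraries (log2 fold change -1.04 ± 0.17, adjusted p = 0.00238). Eda2r (-0.75, adjusted p = 3.84e-05) and Zmat3 (-0.74, adjusted p = 3.68e-05) were higher in Nprl2 KO as well. The count was 9 to 12 when single libraries were left out. Trp53inp1 (-0.32, adjusted p = 0.0831) and Phlda3 (-0.037, adjusted p = 0.821) did not pass the test.

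Several epithelial adhesion genes were higher in Nprl2 KO. Cldn6, a tight junction claudin of pluripotent cells, was at 7.75 and 11.6 CPM in the Tsc2 KO libraries and 56.2 and 66.4 CPM in the Nprl2 KO libraries (log2 fold change -2.66 ± 0.17, adjusted p = 7.01e-06). Cldn7 was at 1.37 and 2.54 CPM in the Tsc2 KO libraries and 8.68 and 10.1 CPM in the Nprl2 KO libraries (log2 fold change -2.24 ± 0.28, adjusted p = 9.27e-05). Both of these claudins were lower in each Tsc2 KO library. Another claudin, Cldn4, was called higher in Tsc2 KO, as were Fn1, Snai2 and Zeb1. Epcam, a surface adhesion protein, was at 62.8 and 70.1 CPM in the Tsc2 KO libraries and 193 and 199.8 CPM in the Nprl2 KO libraries (log2 fold change -1.56 ± 0.080, adjusted p = 1.38e-07). In total 7 of 18 adhesion and epithelial-mesenchymal genes were higher in Nprl2 KO against 4 in Tsc2 KO (2 without Nprl2 KO replicate 2), with a median of -0.26. Vim, which fibroblasts also express, was at 97.6 and 61.5 CPM in the Tsc2 KO libraries and 86.4 and 93.4 CPM in the Nprl2 KO libraries and was lowest in the library with the lowest feeder marker sum (log2 fold change -0.18 ± 0.26, adjusted p = 0.657). Krt8 did not pass the test (-0.21, adjusted p = 0.721).

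**Figure D4:**
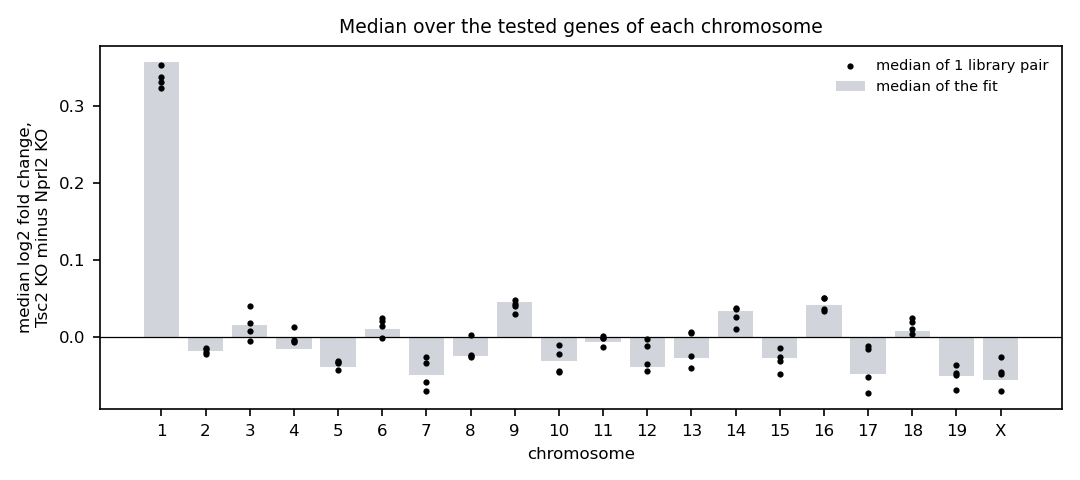
Median log2 fold change (Tsc2 KO minus Nprl2 KO) over the tested genes of each chromosome, as bars, with the medians of the 4 pairs of libraries as points. Chromosome 1 stands at 0.36, with its pairs between 0.32 and 0.35, and the other chromosomes lie between -0.06 and 0.05.

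The differences were not spread evenly over the genome. Over the 750 tested genes of chromosome 1 the median log2 fold change was 0.36, and 356 of them were called higher in Tsc2 KO against 59 higher in Nprl2 KO. The medians of the 4 pairs of libraries were between 0.32 and 0.35. Every other chromosome had a median between -0.06 and 0.05. Along chromosome 1 the median changed with position, and a limit of 80 Mb was chosen after the values were seen. The 284 genes that start below 80 Mb had a median of 0.039, with 57 higher in Tsc2 KO against 37 in Nprl2 KO. The 464 genes at or above it had a median of 0.50, with 299 higher in Tsc2 KO against 22 in Nprl2 KO, and 83.8% of them had a positive difference. In windows of 10 Mb with at least 20 genes, 8 of 14 on chromosome 1 had a median over 0.4, against 2 of 207 elsewhere that exceeded 0.4 in either direction. The cause of the shift was not tested. Without chromosome 1, 2119 genes were called higher in Tsc2 KO against 2233 in Nprl2 KO. Of the chromosome 1 genes named above, Dars (0.50), Eprs (0.50) and Adss (0.51) had differences close to 0.50. Zfp281 (0.57), Fzd5 (0.69) and Hsd17b7 (0.85) lay further above it. Tfcp2l1 (3.36), Lefty2 (-1.64) and Lefty1 (-3.22) were far from it. These are examples, and other named genes of this chromosome are not listed here.

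The differences between the KOs were then set beside the first days of differentiation of wild-type cells, which use none of the same libraries. These 12 libraries, of genotype Rex1GFPd2-Cas9, comprise 3 for each of days 0, 1, 2 and 3 of differentiation without inhibitors and LIF, and the labels do not give the medium of day 0. Both comparisons tested 13354 genes, and 4077 (30.5%) were called higher and 4272 (32.0%) lower on day 1 than on day 0. Of 2434 genes higher in Tsc2 KO, 1478 (60.7%) were lower on day 1 and 306 (12.6%) higher. Of 2258 genes higher in Nprl2 KO, 1406 (62.3%) were higher on day 1 and 298 (13.2%) lower. In the first case the overlaps are 34.6% of all genes called lower on day 1 and 7.51% of all called higher. In the second they are 34.5% of all genes called higher on day 1 and 6.98% of all called lower. Across the 13354 genes, which are not independent replicates, Spearman's rho between the differences was -0.43.

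**Figure D5:**
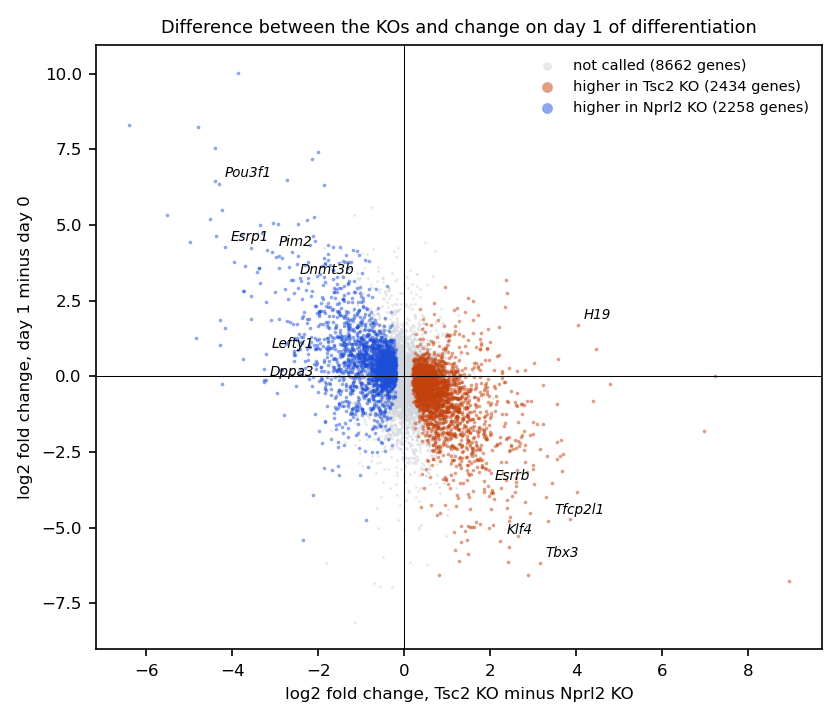
Log2 fold change between the KOs (x axis, Tsc2 KO minus Nprl2 KO) against the change from day 0 to day 1 of wild-type differentiation (y axis, log2), 1 point a gene, red for genes called higher in Tsc2 KO, blue for genes called higher in Nprl2 KO and grey for the rest. Most red points lie below 0 and most blue points above 0, while H19 (red) lies above 0 and Dppa3 (blue) below 0.

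On day 3, 4475 genes (33.5%) were higher and 5002 (37.5%) lower than on day 0. Of the genes higher in Tsc2 KO, 1418 (58.3%) were lower on day 3 and 478 (19.6%) higher, and of those higher in Nprl2 KO, 1209 (53.5%) were higher and 563 (24.9%) lower. Spearman's rho was -0.31.

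List by list, the direction on day 1 was opposite to that between the KOs for some and the same for others. Naive genes had a median of 1.15 between the KOs and -2.90 on day 1, and formative genes -1.67 and 3.43. Lysosomal genes had 0.74 and -0.87, with 27 of 29 called lower on day 1. Germline genes had 0.70 and 0.77, with 13 called higher on day 1, and amino acid response genes had -0.33 and -1.36. Among single genes, H19 was higher in Tsc2 KO and also higher on day 1 (1.69, adjusted p = 3.37e-05). Dppa3, higher in Nprl2 KO, had a day 1 difference of -0.18, adjusted p = 0.692, and Lefty1 one of 0.73, adjusted p = 0.242. Tbx3 (-6.18, adjusted p = 4.44e-17) and Pou3f1 (6.36, adjusted p = 1.3e-17) changed on day 1 in the direction opposite to their difference between the KOs.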

How the data were processed

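Poly(A) RNA from sorted GFP+ KO cells and from a wild-type time course was sequenced as 75-base paired reads after a stranded mRNA preparation. The authors ran kallisto (0.42.1 per the submitters' processing notes, which name the build mm10) and deposited, for each transcript and library, an estimated count and a TPM value. Their deposited tables comparing each KO with wild type hold fold changes and p-values and were not used. Estimated counts of 33713 of 34079 transcripts were summed per gene through RefSeq annotation of GRCm38.p6 and of 192 through GENCODE M21, and 174 transcripts without a gene (1.96% to 2.03% of counts in the KO libraries, 2.5% to 3.57% in the time course) were left out. Sums were rounded and tested in R 4.3.3 with edgeR 4.0.16 (TMM scaling, filterByExpr, robust quasi-likelihood test, Benjamini-Hochberg adjustment, threshold 0.05) on the 4 KO libraries alone, and likewise for days 1 and 3 against day 0 in the 12 time-course libraries. CPM are counts scaled to the total of the tested genes in each library, adjusted by its TMM factor. The fits were tested on simulated data. Kallisto divides reads among near-identical copies, so values of such genes are uncertain.

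Alternatives were DESeq2 1.42.0, limma 3.58.1 on log2(TPM + 1), other scaling and filters, wild-type libraries added, a replicate block, each library left out, and, chosen after seeing the data, chromosome 1 left out. Gene lists and members were chosen with earlier results of these data known. Named genes were the targeted complexes, the 10 largest differences a direction at a mean log2 CPM of at least 3 without overlap, up to 4 called and 2 highly expressed uncalled members a list, and 5 genes a direction detected in 1 KO. Zfp42, Esrrb, Nanog, Flcn, Rragc, Ldha, Asns, Farsb, Ncl, Vldlr, Nr5a2, Prdm14 and the genes whose promoters are printed were named after their values were seen. Id1, Tcf7l1, Mitf, Cldn4, Fn1, Snai2 and Zeb1 fall outside the rule and were added after their values were seen. Some genes that the rule names are not reported here.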

Additional observations from a re-analysis of the deposited data

How the results depend on the processing

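DESeq2 called 3209 genes (1680 with the higher level in Tsc2 KO, 1529 in Nprl2 KO), limma on TPM 2638 and 1631 in that order, and fits that left out 1 library 3402 to 4109 genes in all, against 4767. With limma 61.8% of calls were higher in Tsc2 KO, against 51.9%, and the median of all genes was 0.057. In all 11 alternatives 2270 calls (47.6%) were kept and 0 were called in the other direction by edgeR, DESeq2 or limma. These 11 do not include the alternative that leaves out chromosome 1. The median of chromosome 1 was 0.38 with DESeq2 and 0.35 to 0.38 when 1 library was left out. Of genes that did not pass the test, Nprl3 had log2 fold changes of -0.062 to 0.078 and Pou5f1 of -0.16 to 0.069 when 1 library was left out, with single values of -0.01 for Nprl3 and 0.042 for Pou5f1, and Pou5f1 was at 0.0096 with limma. The cause was not tested.

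A replicate block gave 5726 calls. Replicate differences correlated at 0.221 between the KOs over 9580 genes, but with 2 pairs and no shared batch in the labels the numbers are not taken as a pairing. In the time course same-numbered libraries correlated at -0.223 to 0.265. With the block 5 LIF genes and 2 amino acid response genes were called higher in Tsc2 KO, and 6 Wnt targets and 5 core genes higher in Nprl2 KO.

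Some list counts moved by over 1.5 times with another tool. DESeq2 called 3 Wnt components and 6 germline genes higher in Tsc2 KO, and 5 amino acid response, 6 ribosome biogenesis and 3 proteasome genes higher in Nprl2 KO. Limma called 1 Wnt component, 3 insulin pathway, 1 tRNA synthetase, 1 cholesterol, 5 ribosome biogenesis and 3 proteasome genes higher in Nprl2 KO. Genes with few counts, such as Egr1, are limited by depth, and 2 libraries a KO limit every estimate of spread.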

Other observations

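Further lists, described in the same way, gave the following. Of 9 genes of iron uptake and storage, 3 were higher in Tsc2 KO and 2 in Nprl2 KO (1 without Tsc2 KO replicate 1). The iron exporter Slc40a1, on chromosome 1, was at 2.58 and 1.82 CPM in the Tsc2 KO libraries and 20.9 and 19.2 CPM in the Nprl2 KO libraries (log2 fold change -3.19 ± 0.20, adjusted p = 6.81e-07). The ferritin light chain Ftl1, which has near-identical copies and is uncertain, was at 3737 and 3959 CPM in the Tsc2 KO libraries and 2287 and 2289 CPM in the Nprl2 KO libraries (log2 fold change 0.75 ± 0.069, adjusted p = 9.98e-06). The ferritin receptor Ncoa4 (0.30, adjusted p = 0.00445) and the reductase Steap3 (0.47, adjusted p = 0.00653, not called with wild-type libraries added) were also called, and the transferrin receptor Tfrc was not (-0.0084, adjusted p = 0.966).

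In the Lin28 and let-7 list, 3 of 9 genes were higher in Tsc2 KO and 4 in Nprl2 KO. Lin28b, which blocks let-7 maturation, was at 27.4 and 26.7 CPM in the Tsc2 KO libraries and 44.8 and 49.8 CPM in the Nprl2 KO libraries (log2 fold change -0.81 ± 0.10, adjusted p = 0.000122). The chromatin protein Hmga2, a let-7 target, was at 46.7 and 48.1 CPM in the Tsc2 KO libraries and 7.73 and 7.69 CPM in the Nprl2 KO libraries (log2 fold change 2.62 ± 0.12, adjusted p = 6.97e-08), and its relative Hmga1 had a difference of -0.79, adjusted p = 0.000283. Of 19 G1 genes, 2 were higher in Tsc2 KO and 6 in Nprl2 KO. The inhibitor Cdkn1c, an imprinted gene, was at 10.1 and 10.2 CPM in the Tsc2 KO libraries and 29.8 and 20.7 CPM in the Nprl2 KO libraries (log2 fold change -1.30 ± 0.18, adjusted p = 0.000246). Ccne1, the cyclin that drives S phase entry, had a difference of -1.03, adjusted p = 1.77e-06, and Cdkn1a (-0.27, adjusted p = 0.586) and Cdk4 (0.085, adjusted p = 0.381) did not pass the test.

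Of 38 proteasome genes, 2 were higher in Tsc2 KO and 5 in Nprl2 KO (3 without Nprl2 KO replicate 2, 2 without either Tsc2 KO library), and of 11 hypoxia genes 1 and 2 (1 when any single library was left out). Psmb10, an immunoproteasome subunit, was at 6.29 and 6.61 CPM in the Tsc2 KO libraries and 10.9 and 11.3 CPM in the Nprl2 KO libraries (log2 fold change -0.78 ± 0.17, adjusted p = 0.0048). Bnip3, a mitophagy receptor, was at 21.5 and 18.024 CPM in the Tsc2 KO libraries and 34.9 and 31.6 CPM in the Nprl2 KO libraries (log2 fold change -0.75 ± 0.12, adjusted p = 0.000677). Of 7 pentose phosphate genes 1 was higher in Tsc2 KO and 3 in Nprl2 KO, and G6pdx, the entry enzyme, had a difference of -0.63, adjusted p = 6.59e-05.

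Zscan4 genes, which mark the rare cells with a 2-cell-like program, were higher in Nprl2 KO. Zscan4c was at 107 and 104 CPM in the Tsc2 KO libraries and 206 and 217 CPM in the Nprl2 KO libraries (log2 fold change -1.01 ± 0.071, adjusted p = 1.4e-06). The copies Zscan4d (-0.80, adjusted p = 2.38e-05) and Zscan4f (-0.98, adjusted p = 2.49e-06) share reads with it and are uncertain as single genes. The 2-cell-like markers summed to 342 CPM in both Tsc2 KO libraries and to 635 and 692 CPM in Nprl2 KO, and the non-Zscan4 markers Tcstv3 (-0.34, adjusted p = 0.461) and Zfp352 (-0.74, adjusted p = 0.0715) did not pass the test. Trophectoderm markers summed to 48.3 and 56.1 CPM in Tsc2 KO and 67.2 and 86.6 CPM in Nprl2 KO, most of it Tfap2c (-0.90, adjusted p = 0.00119), with Gata3 (1.76, adjusted p = 0.00136) and Krt7 (1.17, adjusted p = 0.045) in the other direction. Early neural markers summed to 126 and 122 CPM in Tsc2 KO and 144 and 143 CPM in Nprl2 KO, most of it Tubb3, which was not called (0.021, adjusted p = 0.85). Among them the intermediate filament gene Nes was at 8.15 and 6.90 CPM in the Tsc2 KO libraries and 20.5 and 28.2 CPM in the Nprl2 KO libraries (log2 fold change -1.70 ± 0.18, adjusted p = 3.91e-05). Pax6 was higher in Nprl2 KO (-2.09, adjusted p = 0.03), at 2.90 and 0.799 CPM in Tsc2 KO and 9.54 and 6.06 CPM in Nprl2 KO. Sox1 was higher in Tsc2 KO (1.40, adjusted p = 0.0156) but low throughout, at 2.58 and 2.47 CPM in Tsc2 KO and 1.24 and 0.699 CPM in Nprl2 KO. Elf5, Mesp1, Hes5 and Neurog2 were at or under 3 counts in every library. The marker genes of this paragraph were taken from the marker lists, not from the rule for named genes.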
